A study of Mus musculus with 21 samples.

Results

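RNA-seq of mouse embryonic stem cells after 4 h of BMH-21, a small molecule that inhibits RNA polymerase I, was compared with the untreated cells of the same study. The comparison takes 6 of the 21 libraries: the 3 treated for 4 h and the 3 taken at 0 h. All were E14 cells, a stem cell line of the 129 strain, plated the day before in serum medium with leukaemia inhibitory factor (LIF). Treated cells received fresh medium with 1 µM BMH-21. The 0 h cells served as the untreated control, and no vehicle or untreated 4 h group is named, so time after the medium change and the inhibitor cannot be told apart. The other groups were 2 h and 8 h of 1 µM BMH-21 and 2, 4 and 8 h of 1 µM CX-5461, another polymerase I inhibitor, with 3 libraries each. Poly(A) RNA was sequenced with a directional kit. Nothing in the labels says that the 3 libraries of a group came from separate cultures, so p-values measure the spread between these samples, which may be technical.

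RNA polymerase I transcribes the ribosomal DNA in the nucleolus. When its work stops, free ribosomal proteins bind MDM2, the ligase that keeps the transcription factor p53 low, and p53 activates its target genes. Embryonic stem cells are kept undifferentiated by a network of factors around POU5F1, SOX2 and NANOG, while fibroblast growth factor and ERK signalling moves them towards the formative state that precedes lineage choice. BMH-21 is a planar compound that binds GC-rich DNA and leads to loss of the large polymerase I subunit.

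Values are log2 of the scaled reads (CPM) as deposited, not corrected for gene length, so levels are compared within a gene only. Genes were tested where 3 or more of all 21 libraries had a value over 0, and 14666 of 20900 genes met this. The 6 libraries had 49976128 to 55844540 reads, and a value of 0 stands for 45 to 57 reads in them. The deposited scaling put BMH-21 replicate 1 (library median 4.46) above replicates 2 and 3 (4.21 and 4.23), and control replicate 3 (4.34) below control replicates 1 and 2 (both 4.50). All results are therefore given as deposited and after centring each library on its median, which adds 0.15 to every log2 fold change. The median change of all genes tested was -0.21 as deposited and -0.06 centred. Fold changes are log2 and as deposited unless called centred, and a gene is said to rise or fall where limma's adjusted p was under 0.05. In bulk RNA, fewer cells with a transcript and less of it per cell cannot be told apart.

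Of the 3 genes that mark this comparison, Mdm2 is itself a p53 target. It had 6659, 6420 and 5789 reads in the 3 controls and 58214, 58492 and 55941 after BMH-21, at a mean log2 level of 7.08 ± 0.12 and then 10.08 ± 0.17 (SD, n = 3). All 3 treated libraries lay far above all 3 controls, and Mdm2 rose by 3.01 (SE 0.10, n = 3 and 3, limma adjusted p = 1.4e-55), which is 3.16 centred. In GENCODE M21 (GRCm38), Mdm2 lies on the minus strand at chr10:117688875-117710758.

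Krt5, a keratin of basal epidermal cells on the minus strand at chr15:101707070-101712898, had 10, 10 and 18 reads in the controls. After BMH-21 it had 1939, 1973 and 1925 reads. Its log2 values went from -2.16, -2.12 and -1.36 to 5.37, 5.11 and 5.12. Krt5 thus moved from a trace to a clearly expressed transcript in each of the 3 treated libraries, with a rise of 7.08 (SE 0.14), or 7.22 centred with a limma adjusted p of 4.3e-21.

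Foxd3 encodes a forkhead factor of pluripotent and neural crest cells and lies on the plus strand at chr4:99656299-99658622. Its values were 6.11, 6.12 and 6.12 in the controls, the tightest of the 3 markers. They were 1.57, 1.24 and 1.39 after BMH-21. Foxd3 fell by 4.72 (SE 0.12), or by 4.57 centred with a limma adjusted p of 2.7e-22, and no treated library came near a control.

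**Figure D1:**
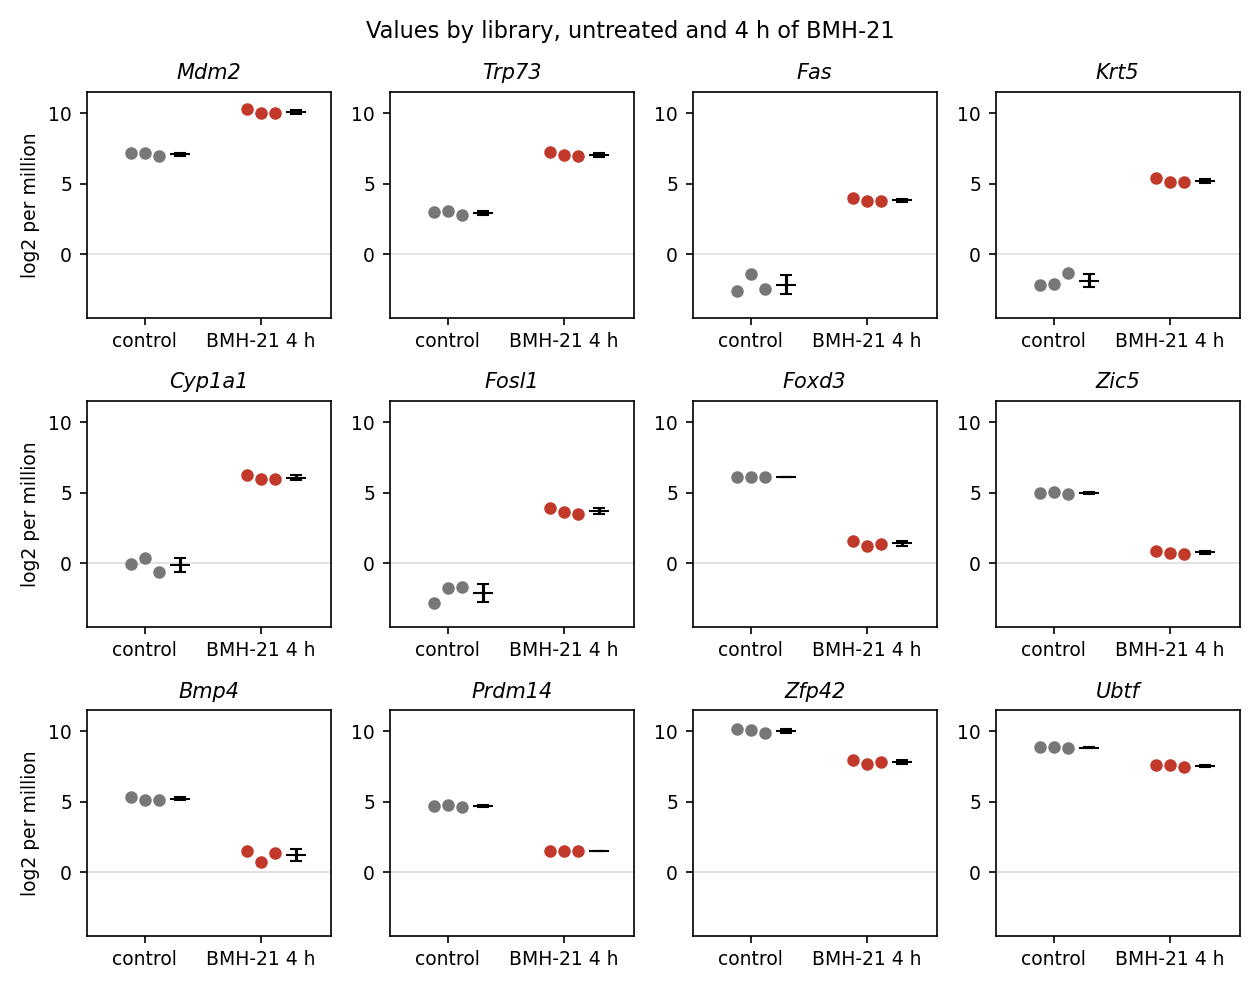
Log2 CPM (y axis) of 12 genes in the 3 control (grey) and 3 BMH-21 4 h (red) libraries, with replicates 1 to 3 from left to right, and the mean and SD of each group in black. The 2 groups do not overlap for any of the 12 genes, many of them chosen for this, nor for 64.9% of all genes tested. Krt5 lies at -2.16 to -1.36 in the controls and 5.11 to 5.37 after BMH-21.

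The libraries carried the defining stem cell markers. In the controls Pou5f1 stood at 10.66 ± 0.10 (SD, n = 3), Sox2 at 9.34 ± 0.08, Nanog at 8.86 to 9.08 and Zfp42 at 10.03 ± 0.14. The summed level of Pou5f1, Sox2, Nanog, Zfp42 and Esrrb was 3890 to 4424 CPM in the controls and 1998 to 2317 after BMH-21. Of 6 fibroblast markers, Col3a1, Dcn and Postn stayed below the filter, with 0 to 18 reads per library. The summed level of all 6 was 30.5 to 34.8 CPM in the controls and 43.5 to 53.3 after BMH-21. In mean log2 level Col1a1 went from 3.15 to 4.97 and Col1a2 from 0.26 to 0.47, but Thy1 from 4.48 to 3.81. Gata6, Gata4, Sox17 and Pdgfra, markers of extraembryonic endoderm, summed to 7.47 to 9.50 CPM in the controls and 15.55 to 19.74 after BMH-21. The sum rose mainly through Pdgfra, which had 569 to 615 reads after BMH-21 against 94 to 119 in the controls. The mean log2 level of Gata6 went from 1.12 to 1.55, but that of Gata4 from 1.72 to 0.97 and that of Sox17 from -0.01 to -0.31. Of the trophoblast markers Elf5 was below the filter. Cdx2, Elf5, Hand1 and Ascl2 together summed to 7.51 to 9.80 CPM in the controls and 8.63 to 9.89 after BMH-21. Whether a few cells of these kinds contributed to the gene changes described here was not tested.

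Across the transcriptome, 3234 of 14666 genes rose (22.1%) and 6592 fell (44.9%) as deposited, 67.0% in all. After centring 4718 rose (32.2%) and 6081 fell (41.5%). Median-ratio scaling of the recovered reads gave 5043 higher and 5687 lower, so the balance between rises and falls depended on the scaling. Of the genes tested, 3230 rose on both scales (22.0%) and 6077 fell on both (41.4%). At a change of at least 2-fold the counts were 1679 higher (11.4%) and 1164 lower (7.94%) as deposited, and 1677 higher (11.4%) and 795 lower (5.42%) on both scales. The values of the 2 groups did not overlap for 64.9% of all genes tested. With so much of the table moving, the count of any gene list is to be read against these shares.

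The genes with large rises had lower control levels than those with large falls. Of 1261 genes with a control mean below 0, 767 (60.8%) rose at least 2-fold. These genes could enter the test only through groups where they were higher, so that share is partly set by the filter. Of 2864 genes with a control mean of 2 to 4, 288 (10.1%) rose and 309 (10.8%) fell at least 2-fold. Of 873 genes above 8, 0 rose and 54 (6.19%) fell at least 2-fold. The median control level was 0.35 for the genes that rose 2-fold on both scales and 3.65 for those that fell.

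**Figure D2:**
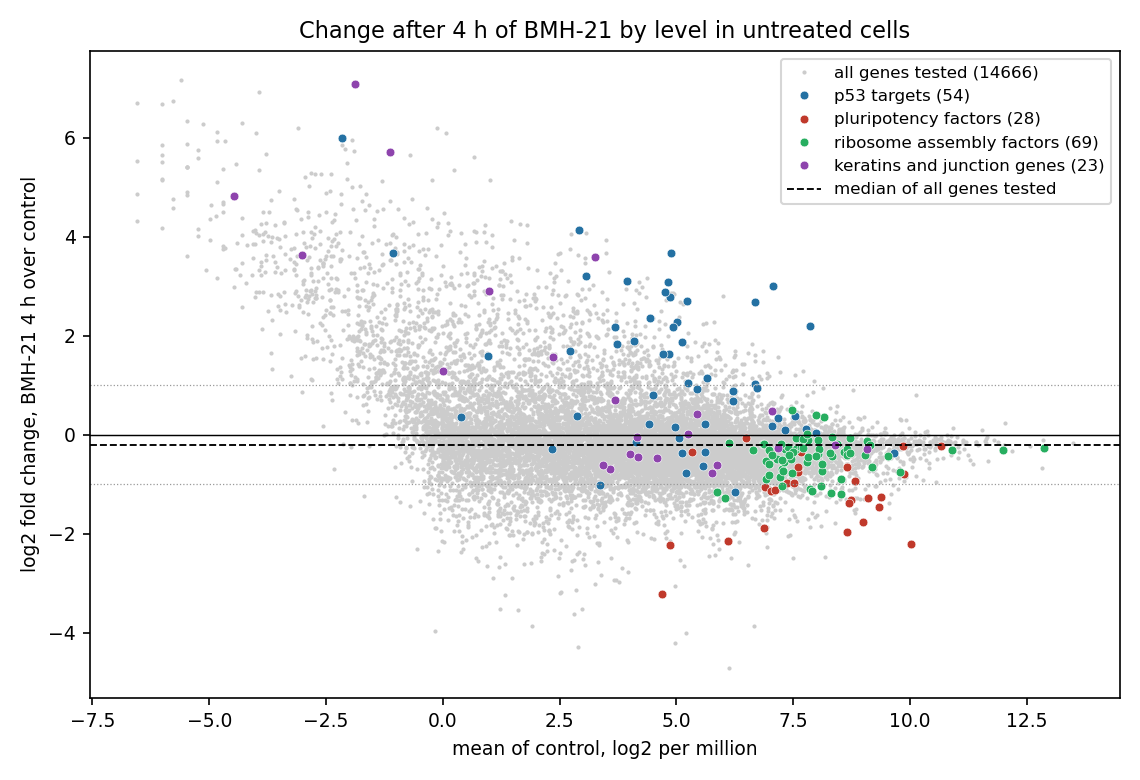
Log2 fold change after 4 h of BMH-21 (y axis, as deposited) against the mean log2 level in the 3 controls (x axis) for 14666 genes in grey, with 4 gene lists in colour, a dashed line at the median of all genes (-0.21) and dotted lines at a 2-fold change. Most p53 targets lie above the dashed line, and the pluripotency factors lie below it except Klf5 (-0.06).

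The p53 target genes rose together in number, with a few members going the other way. Of 20 genes of feedback and cell cycle arrest, 14 rose and 3 fell, and 12 rose at least 2-fold (median of the list 1.37, centred 1.52). Trp73, a p53 family member, had the largest rise of this list. Its values were 2.97, 3.03 and 2.76 in the controls and 7.22, 7.04 and 6.93 after BMH-21, a rise of 4.14. Plk2, a kinase of the stress response, rose by 3.67, the antiproliferative Btg2 by 3.09 and Cdkn1a, the cyclin-dependent kinase inhibitor p21, by 2.70. The values of Cdkn1a were 5.26, 5.32 and 5.11 in the controls and 8.08, 7.80 and 7.89 after BMH-21. Trp53 itself fell by 0.38 (centred -0.23), from 9.65 ± 0.10 to 9.28 ± 0.14 (SD, n = 3). Plk3, another polo-like kinase, fell by 0.76, and Gadd45a, a growth arrest gene, by 0.64.

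Of the 17 tested genes of apoptosis downstream of p53, 12 rose and 1 fell (median 0.93, centred 1.08), with 8 higher at least 2-fold. Fas, the death receptor, had 7, 17 and 8 reads in the controls and 730, 775 and 759 after BMH-21. This made it the largest rise of the list at 6.00 (centred 6.15). Fas was below 0 in the controls and could enter the test only through groups where it was higher. With values below 0 set to 0 its rise was 3.83. Pmaip1, which encodes the BH3-only protein NOXA, rose by 3.21 and Apaf1, the apoptosome scaffold, by 2.88. Bbc3, which encodes PUMA, rose by 1.90. Bax, the pore-forming effector, had a fold change of 0.03 that did not pass as deposited (adjusted p = 0.80). Centred, Bax was 0.18 higher with a limma adjusted p of 0.010. Bid, a BH3-only relay protein, fell by 0.34, with overlapping groups, and lost the call without BMH-21 replicate 2 (adjusted p = 0.058).

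The 17 tested p53 targets of repair and metabolism were more divided. In this list 9 rose and 3 fell (median 0.38, centred 0.53). Pgf, a placental growth factor of the VEGF family, rose by 3.66, and Lpin1, a phosphatidate phosphatase, by 3.11. Ercc5, a nuclease of nucleotide excision repair, rose by 1.87, and Polk, a translesion polymerase, by 1.83. Tigar, a fructose bisphosphatase, fell by 1.15, the translesion polymerase Polh by 1.00, and the glutaminase Gls2 by 0.37. Over the 3 lists 35 of 54 tested genes rose and 7 fell, against 22.1% and 44.9% of all genes.

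The factors that hold the stem cell state fell almost without exception. Of 28 pluripotency genes 27 fell (96.4%) and 0 rose as deposited (median -1.09), against 44.9% and 22.1% of all genes. On the centred scale 25 fell and 0 rose, with a median of -0.94, and 12 were lower at least 2-fold on both scales. The largest fall was that of Prdm14, a regulator of naive pluripotency and germ cells. Its values were 4.72, 4.74 and 4.63 in the controls and 1.48, 1.49 and 1.49 after BMH-21. Prdm14 fell by 3.21 (SE 0.12), and the 3 treated libraries were almost identical. Gbx2, a LIF-responsive homeobox factor, fell by 2.22 and Nr5a2, an orphan nuclear receptor, by 2.15.

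Zfp42 (also called Rex1), a marker of naive cells, fell by 2.21. Its values were 10.12, 10.10 and 9.86 in the controls against 7.97, 7.69 and 7.80. Nanog fell by 1.76 and Sox2 by 1.46. Pou5f1, the central factor of the network, moved least of these. It read 10.71, 10.73 and 10.54 in the controls and 10.53, 10.32 and 10.45 after BMH-21, without overlap. Its fold change was -0.23 (adjusted p = 0.032) as deposited, and -0.08 centred, where it did not pass (adjusted p = 0.14). Klf5, a Krüppel-like factor, had a change of -0.06 and was the 1 member of 28 that did not pass.

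Genes of the formative and primed state also fell. Of 17 tested, 15 fell (88.2%) and 0 rose as deposited (median -1.13), against 44.9% and 22.1% of all genes. After centring 1, Etv4, was higher. Foxd3 led the list. Zic2, a zinc finger factor of the primed epiblast, had values of 6.71, 6.62 and 6.65 in the controls and 2.95, 2.69 and 2.75 after BMH-21. It fell by 3.86. Otx2, a homeobox factor of the early epiblast, fell by 2.48 and Fgf5, a classic epiblast marker, by 2.49. Fgf5 was low throughout, with 66 to 82 reads in the controls and 13 to 18 after BMH-21. Cer1, Gsc and Foxa2 were below the filter.

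Among 19 tested neural fate factors 13 fell (68.4%) and 5 rose (26.3%), against 44.9% and 22.1% of all genes (median -0.75, centred -0.60). Zic5, a zinc finger factor that shares its chromosomal neighbourhood with Zic2, had the largest fall of the list at 4.21. It went from 4.99, 5.04 and 4.88 to 0.88, 0.75 and 0.64. Pax6, an eye and forebrain factor, fell by 3.01. Neurog1, a proneural factor, had 53, 43 and 30 reads in the controls and 2, 4 and 2 after BMH-21, too few for a fold change. Going the other way, Mab21l2, an eye development gene, had 3, 4 and 2 reads in the controls and 181, 198 and 215 after BMH-21. It could enter the test only through groups where it was higher. Dll1, a Notch ligand, rose by 1.62.

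Of the signalling lists, that of ERK output fell above the share of all genes (44.9%), and the BMP, Nodal and WNT lists held both rises and falls. Of 16 output genes of ERK signalling, 14 fell and 2 rose (median -1.13, centred -0.98), and 8 fell at least 2-fold on both scales. Spry4, a feedback inhibitor of receptor tyrosine kinases, went from 7.55, 7.51 and 7.44 to 5.13, 5.04 and 4.88. It fell by 2.48, and the 2 groups were far apart. Fgf4, the growth factor that stem cells secrete, fell by 1.70 and the inhibitor Spry2 by 1.55. Dusp6, an ERK phosphatase, fell by only 0.47. The 2 that rose were Phlda1, an immediate response gene, by 1.30 and the receptor Fgfr1 by 0.52.

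In the BMP pathway 7 of 14 genes fell (50%) and 4 rose (28.6%), beside 44.9% and 22.1% of all genes. The median, -0.21, was the same as that of all genes. The ligand Bmp4 fell by 4.00, from 5.33, 5.14 and 5.14 to 1.49, 0.74 and 1.40. Among its treated libraries replicate 2 was lowest. The ligand Bmp7 moved the opposite way, with a rise of 2.73 from 1.74 ± 0.18 to 4.47 ± 0.18 (SD, n = 3). The target genes Id3 and Id1, inhibitors of bHLH factors, fell by 1.98 and 1.52. The signal transducers Smad1 and Smad5 rose by 0.74 and 0.71.

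Of 12 Nodal pathway genes 4 rose (33.3%) and 5 fell (41.7%), beside 22.1% and 44.9% of all genes. The ligand Nodal rose by 1.12 and the transducer Smad3 by 2.00, while the antagonist Lefty2 fell by 0.89 and the cofactor Foxh1 by 0.77. Of 13 tested WNT feedback and target genes 5 rose (38.5%) and 4 fell (30.8%), beside the same shares of all genes. Axin2, a negative feedback gene, fell by 2.14 and Sp5, a direct target, by 1.98. The ligand Wnt3 rose by 2.55, and Rnf43, a ligase that removes WNT receptors, by 1.87 from 17 to 25 reads in the controls to 78 to 102 after BMH-21.

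Immediate early genes, those that cells switch on without new protein synthesis, mostly rose. Of 23 tested genes of this kind and of the AP-1 family, 15 rose and 6 fell (65.2% and 26.1%, against 22.1% and 44.9% of all genes). The median was 0.79 (centred 0.94), and 10 were higher at least 2-fold (43.5%, against 11.4% of all genes). Fosl1, an AP-1 subunit, had 6, 13 and 14 reads in the controls and 710, 696 and 628 after BMH-21. It rose by 5.78, or 5.93 centred with a limma adjusted p of 1.5e-17. Fosl1 was below 0 in the controls and could enter the test only through groups where it was higher. Atf3, a stress-induced partner of AP-1, rose by 3.27, Fos by 2.76 and Jun by 1.88. The subunit gene Jund fell by 0.98. The growth factor gene Ctgf fell by 1.59 and the zinc finger gene Klf6 by 1.18.

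The aryl hydrocarbon receptor (AHR) is a transcription factor that planar aromatic compounds activate. With its partner ARNT it binds the core sequence GCGTG near genes of xenobiotic metabolism. Of 10 tested genes of this pathway 9 rose and 1 fell (median 0.77, centred 0.92), where 22.1% of all genes rose. Cyp1a1, the cytochrome P450 by which receptor activity is usually read, had values of -0.07, 0.34 and -0.64 in the controls. After BMH-21 they were 6.25, 5.98 and 5.99, a rise of 6.19, or 6.34 centred with a limma adjusted p of 1.3e-20.

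Cyp1b1, a related cytochrome, rose by 4.58, from 29 to 42 reads in the controls to 923 to 1059. Cyp1a1 and Cyp1b1 had control means below 0 (-0.12 and -0.33). At such levels 60.8% of genes rose at least 2-fold, a share partly set by the filter, so 22.1% is a low yardstick for them. Ugt1a6a and Ugt1a7c of this list were below the filter. Cyp1a2 rose by 2.17 and Ahrr, which encodes the receptor's repressor, by 2.12. Nqo1, a quinone reductase shared with the NRF2 response, rose by 0.86. Ahr itself rose by 0.42 and Arnt fell by 0.76. Of 13 tested NRF2 antioxidant genes, 3 rose and 4 fell as deposited (23.1% and 30.8%, beside 22.1% and 44.9% of all genes). After centring 7 rose and 3 fell. Leaving out BMH-21 replicate 2 made the 4 lower into 1, and leaving out BMH-21 replicate 3 or control replicate 1 made them into 2. Gclc, a subunit of glutathione synthesis, rose by 1.17 in this list.

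RefSeq promoters (GRCm38.p6) were taken for the genes with the largest rises and falls, where given, and for Cyp1b1 as an AHR target. The 250 bases before the start were searched for the AHR core GCGTG and the AP-1 site TGACTCA on both strands. Below are the windows of Cyp1a1, Cyp1b1, Fas and Dusp13, shown because they hold one or both, the sites of the 2 lists just described. Krt5 and Krt36, also among the largest rises, hold neither in their windows. Among the largest falls, the window of Foxd3 also holds GCGTG, and those of Zic5, Bmp4 and Ankrd34a hold neither. The core is thus found with a rise and with a fall. The core GCGTG, which reads as CACGC on the other strand, is common, being found in 28.2% of 27025 RefSeq windows of this length. The site TGACTCA, which reads as TGAGTCA on the other strand, is found in 4.43% of them. Capitals mark each match of either motif, and the Fas window holds both. Sequences run 5′ to 3′ on the gene's strand.
Cyp1a1, chr9:57697363-57697612, plus strand: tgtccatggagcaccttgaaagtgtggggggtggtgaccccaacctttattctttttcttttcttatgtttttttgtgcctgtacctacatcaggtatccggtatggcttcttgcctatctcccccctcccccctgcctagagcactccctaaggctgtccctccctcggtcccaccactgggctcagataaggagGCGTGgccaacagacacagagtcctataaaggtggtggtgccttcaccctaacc
Cyp1b1, chr17:79715062-79715311, minus strand: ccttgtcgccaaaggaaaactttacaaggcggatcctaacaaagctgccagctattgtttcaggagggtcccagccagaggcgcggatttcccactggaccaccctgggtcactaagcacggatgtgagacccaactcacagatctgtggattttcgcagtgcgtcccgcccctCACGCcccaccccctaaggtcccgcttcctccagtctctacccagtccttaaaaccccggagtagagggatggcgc
Fas, chr19:34290409-34290658, plus strand: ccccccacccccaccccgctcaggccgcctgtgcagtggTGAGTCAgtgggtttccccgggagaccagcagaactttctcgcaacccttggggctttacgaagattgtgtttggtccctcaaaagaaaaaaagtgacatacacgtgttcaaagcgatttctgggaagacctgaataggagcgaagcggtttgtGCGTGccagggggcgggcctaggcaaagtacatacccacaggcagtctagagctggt
Dusp13, chr14:21748623-21748872, minus strand: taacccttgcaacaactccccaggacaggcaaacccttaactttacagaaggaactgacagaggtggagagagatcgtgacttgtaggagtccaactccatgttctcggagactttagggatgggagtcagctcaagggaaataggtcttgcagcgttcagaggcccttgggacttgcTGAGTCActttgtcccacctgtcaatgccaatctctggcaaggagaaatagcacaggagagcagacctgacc
The Cyp1a1 window lies inside the GENCODE gene (chr9:57687928-57703824), whose first start is further upstream. The Cyp1b1 window ends where that gene begins. Dusp13, a dual-specificity phosphatase, rose by 5.96, from 7 to 16 reads in the controls to 811 to 908, and the window is the first of its RefSeq starts. A match describes these letters only, and binding was not measured.

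The stress lists held both rises and falls, at shares near those of all genes. Of 18 ATF4 targets, genes of the amino acid and endoplasmic reticulum stress response, 10 fell and 4 rose (median -0.31, centred -0.16). The shares, 55.6% lower and 22.2% higher, stand beside 44.9% and 22.1% of all genes. Atf4 itself fell by 1.70 and Chac1, a glutathione-degrading enzyme it induces, by 2.04. Ddit4, an inhibitor of mTORC1 that p53 also induces, rose by 2.72 and Cebpb by 1.26. Of 16 heat shock genes 9 fell (56.2%) and 4 rose (25%), beside the same shares of all genes. The inducible chaperones Hspa1a and Hspa1b rose by 2.45 and 1.84, near-identical copies whose reads may be shared. The cochaperone Dnajb1 rose by 1.32, while Bag3, also heat-inducible, fell by 1.20.

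Of the lists for making ribosomes, the assembly factors fell well above the share of all genes, and the polymerase I and III lists fell near it. Of 24 genes of RNA polymerase I and its factors, 13 fell and 1 rose as deposited (median -0.30, centred -0.15), and 5 rose after centring. The share that fell, 13 of 24, stands beside 44.9% of all genes. Ubtf, the architectural factor of active ribosomal genes, was the 1 member that fell at least 2-fold. Its values were 8.85, 8.86 and 8.79 in the controls and 7.60, 7.58 and 7.47 after BMH-21, a fall of 1.28. Polr1a, the gene of the large subunit, had a change of 0.13 as deposited that did not pass, and of 0.28 centred that did. Polr1e, a small subunit gene, rose by 0.43.

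Of 69 tested ribosome assembly factors 52 fell and 3 rose as deposited (median -0.39), and 49 fell and 5 rose after centring (median -0.24). Imp3, of the small subunit processome, fell by 1.27 and Gnl3, the nucleolar GTPase nucleostemin, by 1.20. Pwp2, another processome protein, rose by 0.49. The mRNAs of the ribosomal proteins themselves stayed close to the median of all genes. Of 76 tested, 8 fell and 0 rose as deposited (median -0.13), while 2 fell and 4 rose after centring (median 0.02). The 8 lower became 37 without control replicate 3, 16 without BMH-21 replicate 1, 3 without control replicate 1, and 2 without BMH-21 replicate 2 or control replicate 2. Rpl10a and Rpl3 fell on both scales, by 0.47 and 0.40 as deposited. Of 22 genes of RNA polymerase III 10 fell and 1 rose, with 6 lower without control replicate 1. Gtf3c1, a subunit of its factor TFIIIC, rose by 0.67 and Polr3g fell by 0.82.

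Rn45s, annotated for the ribosomal precursor RNA and named here after its values were seen, read 12.21, 12.58 and 11.35 in the controls and 12.67, 11.38 and 12.78 after BMH-21. The groups overlapped, and a fold change of 0.23 did not pass (adjusted p = 0.23). Poly(A) selection removes most ribosomal RNA, so these values do not measure polymerase I output.

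Growth and cell cycle genes were mostly lower. In the MYC network 7 of 10 genes fell (70%) and 3 rose (30%), against 44.9% and 22.1% of all genes. Mycn, the MYC family member of early embryos, fell by 1.29, from 8.51 ± 0.07 to 7.21 ± 0.11 (SD, n = 3), and Mnt, a repressor of the network, by 1.33. Mxd1 and Mxd4, antagonists of MYC, rose by 1.89 and 1.17. The MYC family member Mycl rose by 0.30, a call lost without BMH-21 replicate 1 (limma adjusted p = 0.12). Of 33 genes of G2 and mitosis 23 fell (69.7%, against 44.9% of all genes) and 1 rose (median -0.34, centred -0.19). Plk1, the mitotic kinase, fell by 1.05 and Bora, the cofactor that helps activate it, by 1.03. Psrc1, a spindle protein gene that p53 is known to regulate, rose by 1.26. Of 35 replication genes 27 fell (77.1%, median -0.41, centred -0.26) and 1, E2f1, rose, by 0.23. That call was lost without BMH-21 replicate 1 or 3, or without any 1 of the controls. E2f8, a repressor of the E2F family, fell by 1.39 and Ccne1, the G1/S cyclin E1, by 0.90.

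Among 23 genes of P-TEFb and transcription elongation 11 fell and 2 rose. The share that fell, 47.8%, was near the 44.9% of all genes. Hexim2, which holds P-TEFb inactive, fell by 1.60, Aff4, a scaffold of the super elongation complex, by 1.30, and Ell3 rose by 0.67. Of 20 tested Polycomb and DNA methylation genes 16 fell (80%) and 2 rose (10%), against 44.9% and 22.1% of all genes (median -0.48, centred -0.33). Phf19 and Pcgf2, subunits of Polycomb repressive complexes, fell by 1.42 and 1.35, and Tet3, a 5-methylcytosine oxidase, rose by 1.60. Of 21 cholesterol synthesis genes 9 fell (42.9%, also near the share of all genes). Sc5d, a sterol desaturase gene, fell by 1.08. The 3 that rose as deposited became 0 if BMH-21 replicate 1 was left out, and 1 if control replicate 3 was.

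Keratins moved in both directions: Krt5, Krt15, Krt7 and Krt14 rose, and Krt8, Krt18, Krt17 and Krt42 fell. Of 23 tested keratin and junction genes 11 rose (47.8%) and 9 fell (39.1%), beside 22.1% and 44.9% of all genes (median 0.03, centred 0.17). Among them were 8 rises and 0 falls of at least 2-fold. Krt15, a basal keratin like Krt5, had 21, 35 and 12 reads in the controls and 1245, 1292 and 1272 after BMH-21, a rise of 5.72. Krt6a had 1, 2 and 2 reads in the controls and 70, 68 and 65 after BMH-21. Krt5, Krt15 and Krt6a were below 0 in the controls and could enter the test only through groups where they were higher. The 8 rises against 0 falls are thus partly set by the filter. Krt7, a simple epithelial keratin, rose by 2.90. Evpl, which encodes the cornified envelope protein envoplakin, went from 3.07, 3.28 and 3.44 to 6.88, 6.86 and 6.81. It rose by 3.59 from a level already well above the filter. Krt8 and Krt18, the keratin pair of early embryos, fell by 0.39 and 0.68, and Sfn, which encodes 14-3-3 sigma, by 0.76. Trp63, the master factor of basal epithelium, was below the filter.

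Of 19 tested extraembryonic factors 8 fell (42.1%, against 44.9% of all genes) and 3 rose (median -0.30, centred -0.15), with 7 rises after centring. Leaving out BMH-21 replicate 1 made the 3 into 1. Pdgfra, a receptor of primitive endoderm, rose by 2.35, from 1.06, 1.39 and 1.00 to 3.70, 3.43 and 3.36, while Gata4 fell by 0.75 and Sox17 did not pass (-0.30). Tead4, a trophectoderm factor, fell by 1.93. Of 7 tested fibroblast markers 3 rose (42.9%) and 1 fell (14.3%), beside 22.1% and 44.9% of all genes. Col1a1, a collagen, rose by 1.83 and Fbln2, a matrix protein, by 2.32, whereas Col1a2, the partner chain of Col1a1, did not pass (0.22), and Thy1 fell by 0.67.

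Genes of the 2-cell embryo, which a small share of stem cells express at a time, rose in part. Of 21 tested 13 rose (61.9%) and 0 fell (median 0.42, centred 0.57), against 22.1% and 44.9% of all genes. Without BMH-21 replicate 1, or without control replicate 3, the 13 became 8. Dux, the factor that starts this programme, had 8, 11 and 3 reads in the controls and 150, 148 and 138 after BMH-21. It was below 0 in the controls and could enter the test only through groups where it was higher. The count of rises against falls is thus partly set by the filter. Zfp750, an epidermal differentiation factor also listed here, rose by 3.64 from 2.90 ± 0.10 (SD, n = 3). Usp17le rose by 1.04 and Sp110 by 1.00, the other members with at least a 2-fold rise as deposited. These 4 became 2 when BMH-21 replicate 1 was left out. Zscan4d, which Dux activates, rose by 0.42, from 1.79, 1.81 and 1.49 to 2.51, 1.95 and 1.89, so the groups nearly touch. Dux, Zscan4, Usp17l and Tcstv genes have near-identical copies, and how their reads were divided is uncertain.

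**Figure D3:**
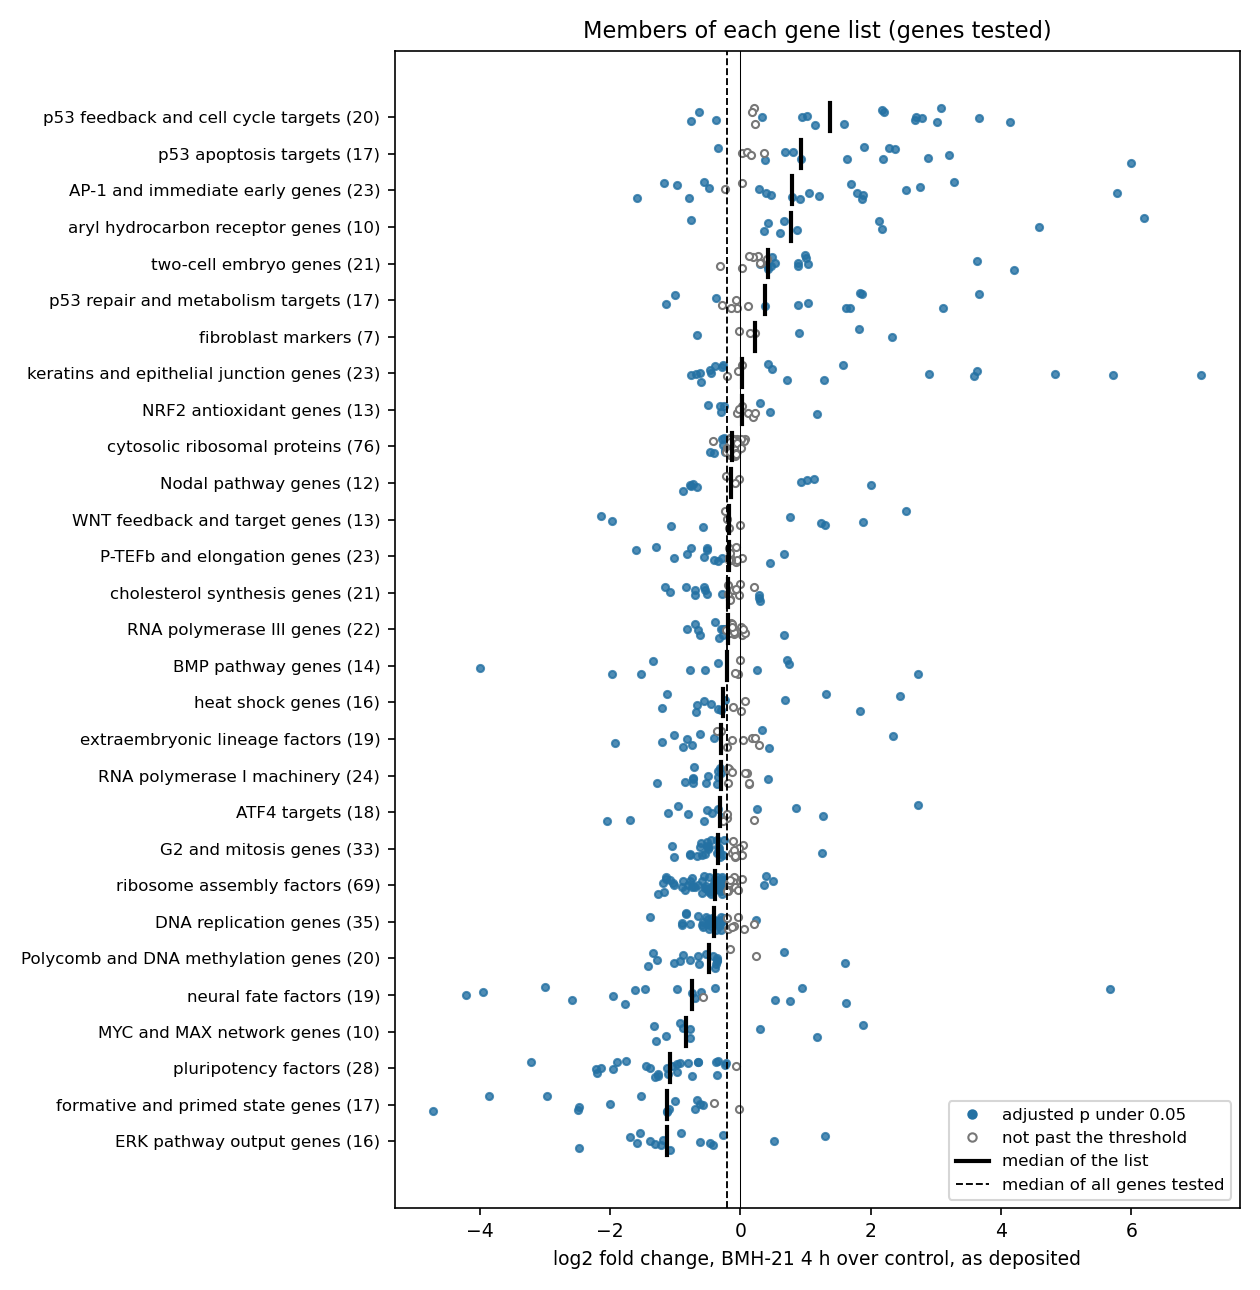
Log2 fold change after 4 h of BMH-21 as deposited (x axis) of every tested member of each gene list (y axis, number tested in brackets), filled where limma's adjusted p was under 0.05, with the list median as a black bar and the median of all 14666 genes as a dashed line. Lists run from the ERK output genes (median -1.13) at the bottom to the p53 feedback targets (median 1.37) at the top.

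Among the 8 largest rises and 8 largest falls with a mean of at least 0 over the 6 libraries, some belong to none of the lists. Rgs14, a regulator of G protein signalling, rose by 6.09, from 42 to 56 reads in the controls to 3684 to 3963. The hair keratin gene Krt36 rose by 5.85 and Siglec1, a sialic acid receptor of macrophages, by 5.74. Mir124a-1hg, a host transcript of the neuronal microRNA miR-124, fell by 4.29, from 358, 344 and 329 reads to 21, 17 and 21. Ankrd34a fell by 3.61 and the transcript 2610035F20Rik by 3.51.

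At a mean of at least 5, where read depth limits the values least, the largest rises were those of Ddit4l (4.08), an inhibitor of mTORC1 related to Ddit4, and Klhl26 (3.94), a Kelch-like protein gene. Ddit4l went from 3.16, 3.12 and 2.91 in the controls to 7.32, 7.05 and 7.05. Rtkn, which encodes rhotekin, rose by 3.66, the receptor phosphatase gene Ptprv by 3.29 and the transporter gene Slc4a11 by 3.17. The largest fall at this level was that of Grb7, an adaptor of receptor tyrosine kinases, from 6.59, 6.57 and 6.43 to 3.99, 3.76 and 3.96. Grb7 fell by 2.62, Sall1, a zinc finger factor, by 2.46, Zfp280b by 2.26 and the transcription factor gene Myrf by 2.05. These genes were chosen among those whose 2 groups do not overlap, which holds for 64.9% of all genes tested.

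The genes that fell had fewer exons than the rest. By GENCODE M21, which matched 96.4% of the genes tested, genes that fell at least 2-fold on both scales had a median of 5 exons, against 9 for those that rose and 9 for all genes tested. Single-exon genes made up 10.1% of those that fell (77 genes), 2.95% of those that rose and 3.62% of all. Median transcript GC content was 50.26% for genes that fell, 53.17% for those that rose and 50.56% for all. These shares are given without a test.

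The response at 4 h was then set against its neighbours in time and against CX-5461 at the same time and dose, each in direct contrasts that do not use the controls. Between 2 h and 4 h of BMH-21, 3044 genes were higher at 4 h (20.8%) and 5103 lower (34.8%). The largest rises with a mean of at least 2 were Rgs14 (4.53), Krt5 (4.29) and Apol8 (4.02), an apolipoprotein L gene, and the largest falls Foxd3 (-2.93), Bmp4 (-2.93) and Zic5 (-2.81). Cyp1a1 went down over the same interval, from 7.37 ± 0.08 at 2 h to 6.07 ± 0.15 at 4 h (SD, n = 3). Of 28 pluripotency genes 24 were lower at 4 h than at 2 h and 0 higher, and of 16 ERK output genes 13 were lower and 2 higher.

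Between 4 h and 8 h, 2726 genes were higher at 8 h (18.6%) and 5541 lower (37.8%). The largest rises at a mean of at least 2 were Fank1 (3.03), Ttc28 (2.88) and Slit1 (2.68), a guidance ligand gene. The largest falls at that level were Ddr2 (-2.46), a collagen receptor gene, the growth factor gene Fgf17 (-2.40) and the amino acid transporter gene Slc7a3 (-2.32). Of 21 two-cell genes 17 were higher at 8 h than at 4 h (median 1.46), and of 76 ribosomal protein genes 72 were lower (median -0.35). Mdm2 was lower at 8 h by 0.30. Foxd3 and Zic5, the deep falls at 4 h, were higher again at 8 h by 0.59 and 1.50, and Zfp42 did not pass between the 2 times (7.82 ± 0.14 at both, SD, n = 3).

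Against CX-5461 at 4 h, 1372 genes were higher with BMH-21 (9.35%) and 1245 lower (8.49%), and 75 (0.511%) and 95 (0.648%) of them by at least 2-fold on both scales. These counts depended on single libraries. The number higher was 662 without BMH-21 replicate 1, 777 without CX-5461 replicate 1, 731 without CX-5461 replicate 3 and 2184 without CX-5461 replicate 2. The number lower was 780 without BMH-21 replicate 2, 820 without BMH-21 replicate 3 and 747 without CX-5461 replicate 2. After centring 4012 were higher (27.4%) and 2707 lower (18.5%).

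Cyp1a1 separated the 2 inhibitors most, at 0.04 ± 0.07 with CX-5461 against 6.07 ± 0.15 with BMH-21 (SD, n = 3), a difference of 6.03 (SE 0.14). The difference for Cyp1b1 was 3.51 and for Cd209c, a lectin gene, 1.80. Of 10 AHR pathway genes 9 were higher with BMH-21 and 0 lower (median difference 0.85). Foxd3 was lower with BMH-21 than with CX-5461 by 2.62 (SE 0.12), at 1.40 ± 0.16 against 4.02 ± 0.25. Zic2 was lower by 1.94 and the kinase gene Pim1 by 1.62.

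Of 33 genes of G2 and mitosis 18 were higher with BMH-21 than with CX-5461 and 0 lower (median difference 0.37), 26 and 0 after centring. Plk1 stood at 6.70 ± 0.16 with BMH-21 and 6.30 ± 0.17 with CX-5461, both under the control level of 7.75 ± 0.08 (SD, n = 3). Mdm2 was higher with BMH-21 by 0.59 and Krt5 by 1.16. For Trp73 the difference was 0.08 (SE 0.11) and did not pass (limma adjusted p = 0.68), and for Dux it was 0.65 (SE 0.26) and did not pass either (limma adjusted p = 0.073). With errors of this size the 2 inhibitors are not shown to act alike on these genes.

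**Figure D4:**
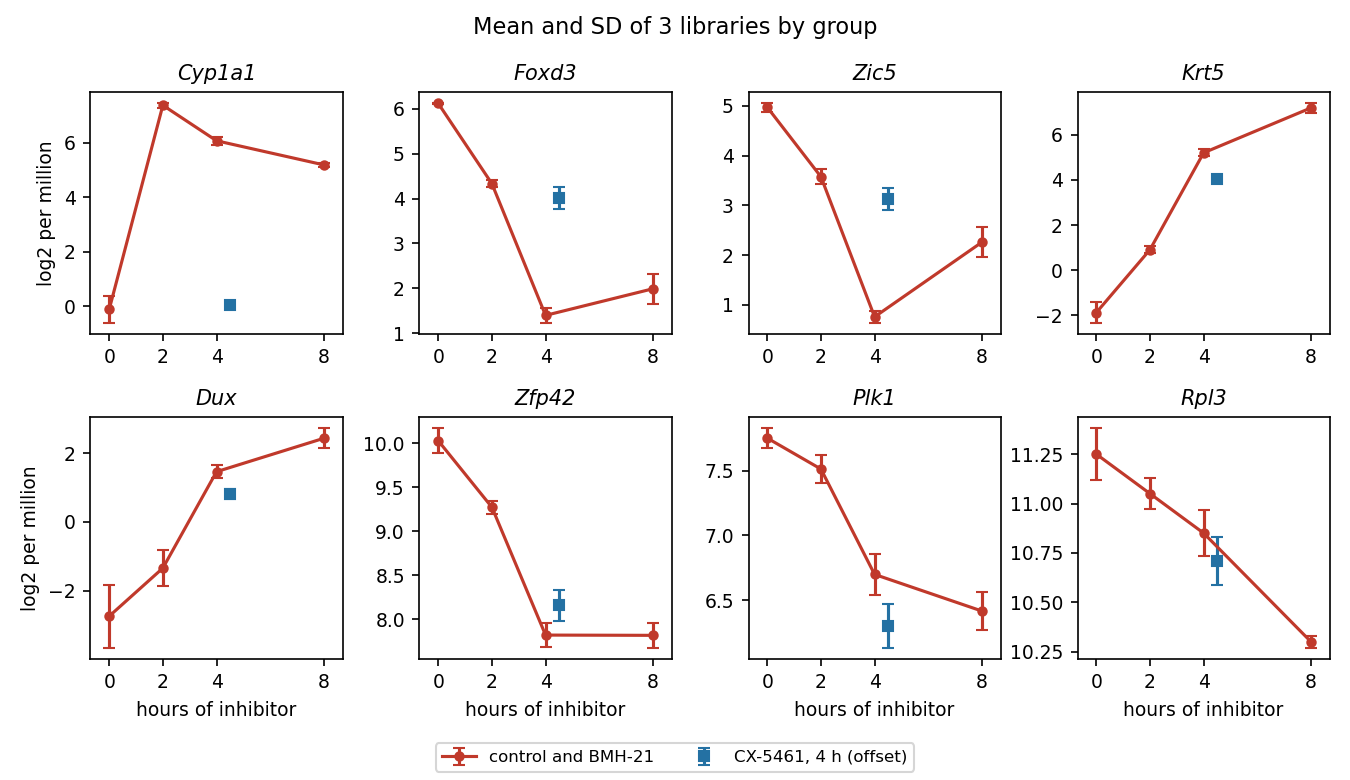
Mean and SD of log2 CPM (y axis) in 3 libraries per group against hours of BMH-21 (x axis, red, 0 h being the control), with CX-5461 at 4 h as a blue square set slightly to the right. Cyp1a1 stays at the control level with CX-5461 (0.04), and Foxd3 and Zic5 are lowest at 4 h of BMH-21 (1.40 and 0.76).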

How the data were processed

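Each library gave 1 column of the deposited table, whose values are log2 CPM (reads scaled to the library's effective size) on the authors' own scaling (unit from the values: with an offset of 0.5 reads, whole reads came back to within 1.7e-08 in all 21 columns). The roles and order of the authors' steps are not given in the sources used here. Per the submitters' processing notes, Trim Galore 0.5.0, TopHat2 2.1.1, R 4.0.5, DESeq2 1.30.1, edgeR 3.32.1, limma 3.46.0 and the mm10 build were used.

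Here limma 3.58.1 in R 4.3.3 was fitted with a variance trend to all 21 libraries as 7 group means, so that the groups share 1 estimate of the spread. Adjusted p is Benjamini-Hochberg over 14666 genes, with a threshold of 0.05, and 6234 genes were below the filter. The same fit was run on values centred on each library's median. As deposited, the shared spread makes adjusted p too small for genes that vary more than most, such as Krt5, Cyp1a1 and Fosl1, so the centred adjusted p is given for these. The code was tested on simulated data. Reads per library are in the text. The 3 libraries of BMH-21 4 h, and the 3 controls, differed by more than sampling noise. The other groups were not checked for this. All libraries were counted separately.

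Named genes were the 3 markers, the 8 largest rises and 8 largest falls called on both scales without overlap (at a mean of at least 0, and again at least 5), the 2 largest in each direction and the exceptions of each list, and the 3 largest in each direction of the other contrasts at a mean of at least 2. Some genes that this rule names are not reported here. Members and lists were chosen with earlier results of these data known. No transcripts of the mitochondrial genome are among the values used. Promoter windows are from RefSeq (GRCm38.p6), positions from GENCODE M21. A window was found for 75.0% of the genes tested, so windows were not summarised over groups. Alternatives covered scaling, filter, offset, variance model, GC content, a replicate block and leaving out each library.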

Additional observations from a re-analysis of the deposited data

Results flagged for a closer look

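The direct contrasts set the 4 h response apart from its neighbours at the genes below, each chosen as among the 3 largest differences in its direction at a mean log2 level of at least 2 over the 6 libraries, so their size is a description. All differences are log2 as deposited with limma's test. From 2 h to 4 h of BMH-21, Rgs14 was higher by 4.53, Krt5 by 4.29 and Apol8 by 4.02. Foxd3 (-2.93), Bmp4 (-2.93) and Zic5 (-2.81) were lower over the same interval. From 4 h to 8 h, Fank1 differed by 3.03, Ttc28 by 2.88 and Slit1 by 2.68, and Ddr2 by -2.46, Fgf17 by -2.40 and Slc7a3 by -2.32. Against CX-5461 at 4 h, BMH-21 gave more Cyp1a1 (6.03), Cyp1b1 (3.51) and Cd209c (1.80), and less Foxd3 (-2.62), Zic2 (-1.94) and Pim1 (-1.62). Cd209c stood at 5.65 ± 0.21 with BMH-21 and 3.85 ± 0.22 with CX-5461 (SD, n = 3), and Pim1 at 3.38 ± 0.19 and 5.01 ± 0.12.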

How the results depend on the processing

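The count of 9826 genes differing from the control ranged from 8780 to 10193 when 1 library was left out, and the 2843 genes at 2-fold from 2782 to 3024. Over the other settings the first ranged from 8329 (stricter filter) to 11206 (GC trend removed) and the second from 2003 (stricter filter) to 4121 (no filter). Leaving out 1 library gave 6852 to 8665 genes between 2 h and 4 h and 7414 to 7876 between 4 h and 8 h. For BMH-21 against CX-5461 at 4 h the 2617 genes became 6719 after centring, and 1687 (without CX-5461 replicate 3) to 2931 (without CX-5461 replicate 2) with 1 library left out. The cause was not tested. Of 2898 values of 153 named genes, 2838 kept their direction and side of the threshold, 59 no longer passed (among them Cdx2, which is 0 in both groups once values below 0 are set to 0), and 1 turned: Cdh1 was 0.0071 with quantile normalization. With a replicate block 9680 genes differed from the control, 2843 at 2-fold, 7964 from 2 h, 8116 from 8 h and 2404 from CX-5461. Same-numbered libraries of BMH-21 4 h and the control did not deviate together (r = 0.0066, -0.058 and -0.044 across genes). With 3 libraries per group these values cannot decide whether same-numbered libraries were handled together. The main fit uses no pairing. A value of 3 reads lies at -4.03 to -3.70, which limits folds of genes near it. With values below 0 set to 0, some large rises kept their call but shrank. Fas went from 6.00 to 3.83, Krt36 from 5.85 to 3.68 and Fosl1 from 5.78 to 3.68. Mab21l2 went from 5.68 to 1.90 and Dux from 4.2 to 1.46.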
